A study of Homo sapiens with 6 samples.

Results

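Calu3-only BRD8 regions with CTCF are stretches of the genome where ChIP-seq in Calu3 called both BRD8 and CTCF while no BRD8 peak was called in 16HBE14o-. They were chosen by pooling 3 peak lists, merging peaks that overlapped by at least 1 bp, and keeping the merged regions that held a Calu3 BRD8 peak and a Calu3 CTCF peak but no 16HBE14o- BRD8 peak. This gave 2235 of 21110 merged regions (10.6%), with 2648 of the 9769 Calu3 BRD8 peaks (27.1%) and 2312 of the 16413 Calu3 CTCF peaks (14.1%). Calu3 is a lung adenocarcinoma cell line and 16HBE14o- is a bronchial epithelial cell line. Both are human, and both were grown without treatment in the same medium. BRD8 was precipitated from each line with the same Active Motif antibody, and CTCF was precipitated from Calu3 with a Millipore antibody, per the labels. Each of the 3 experiments had 2 replicates, which the authors combined into 1 list of peaks by the irreproducible discovery rate (IDR), a procedure that keeps peaks ranked alike in both replicates. The lists give positions on the hg19 build and 1 signal per peak, so there was no spread between replicates to set a difference against, and the sequencing depth is unknown.

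BRD8 is a bromodomain protein, that is, one with a domain known for binding acetylated lysines, and a subunit of the NuA4/TIP60 complex, which acetylates histones and takes part in transcription and DNA repair. CTCF, whose zinc fingers read a long DNA motif, sits at insulators and at the anchors of chromatin loops, where it holds back the cohesin ring. CTCF sites are largely the same in many cell types, but CTCF was mapped here only in Calu3, so its presence at these regions in 16HBE14o- was not measured. A region missing from the 16HBE14o- BRD8 list is one with no called peak, and this does not show that BRD8 was absent there.

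The Calu3-only regions made up 38.7% of the 5777 regions with Calu3 BRD8 and CTCF (95% exact Clopper-Pearson interval 37.4 to 40%, here and below for counting error only). The other 3542 such regions, called both-line regions below, also held a 16HBE14o- BRD8 peak. Among the 4073 Calu3 BRD8 regions with no 16HBE14o- BRD8, 54.9% held CTCF (53.3 to 56.4%) and were thus Calu3-only regions with CTCF, and 1838 did not. The CTCF regions used for comparison also include 2649 regions with BRD8 in 16HBE14o- but not in Calu3 and 7567 regions with BRD8 in neither line. Of the 9802 CTCF regions without 16HBE14o- BRD8, 22.8% held Calu3 BRD8 (22 to 23.6%). All of these numbers follow from the rule and are given as a description.

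Most Calu3-only regions were simple, with 1780 of 2235 (79.6%) holding 1 BRD8 and 1 CTCF peak. More than 1 BRD8 peak was found in 403 of them (18%), against 20.9% of the both-line regions and 17.1% of the Calu3 BRD8 regions without CTCF. There were 394 regions with 2 BRD8 peaks, 8 with 3 and 1 with 4. The region with 4 lay in 17q21.33 (chr17:48246015-48247454) and was, at 1440 bp, the widest of all, although its strongest BRD8 peak ranked only 8351 of 9769. Among those with 3, the best ranked lay in 3q25.31 (chr3:156391785-156392580), at BRD8 rank 864 and with 2 CTCF peaks, and others lay in 3q22.1, 20q13.13 and 15q25.1 at BRD8 ranks 2207, 4051 and 5814. In regions with several BRD8 peaks, the 413 additional BRD8 summits lay a median of 206 bp from the strongest one (quartiles 201 and 230 bp, range 199 to 964 bp). The width of 1523 regions (68.1%) was 476 bp, which is the median width of a Calu3 BRD8 peak, against median widths of 290 bp in the CTCF list and 224 bp in the 16HBE14o- BRD8 list. Region width thus followed the peak widths of the lists.

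The edge of the rule was crossed by few regions. The Calu3-only region nearest to a 16HBE14o- BRD8 peak lay in 2p22.2 (chr2:38303310-38303785), 53 bp away from it, and the next 2 lay in 9q34.3 and 1p22.3, each 131 bp away. On the other side of the rule, the smallest overlaps with a 16HBE14o- peak in regions of all 3 lists were 32 bp in 15q24.2, 63 bp in 17q12 and 71 bp in 20q13.32. The nearest 16HBE14o- BRD8 peak was usually far off, at a median of 69.3 kb (quartiles 19.9 and 227 kb, highest 6.87 Mb). It was within 1 kb of 62 Calu3-only regions (2.77%) and within 10 kb of 355 (15.9%). For CTCF regions with BRD8 in neither line, the median was 59.4 kb, with 4.44% within 1 kb and 18.1% within 10 kb. Most Calu3-only regions thus had no 16HBE14o- peak just beside them.

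Signals are given as a percentile within their own list, where 100 is the strongest peak, and the strongest peak stands for a region. For BRD8, the Calu3-only regions were of middle strength: their median percentile was 56.2 (quartiles 36.5 and 75), against 71.6 for both-line regions (49.7 and 87.8) and 35.9 for Calu3 BRD8 regions without CTCF (22.5 and 54). For CTCF, their median percentile was 52.6 (32.1 and 74.1), against 76.9 for both-line regions, 60.5 for regions with 16HBE14o- BRD8 alone and 35.6 for CTCF regions with no BRD8. Expressed in the authors' CTCF signal, the medians were 36 in the Calu3-only regions, 80.7 in the both-line regions, 42.8 in those with 16HBE14o- BRD8 alone and 27.6 without BRD8. These distributions overlapped widely. Because the signals belong to the same peak calls as the rule, the differences were not tested.

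**Figure D1:**
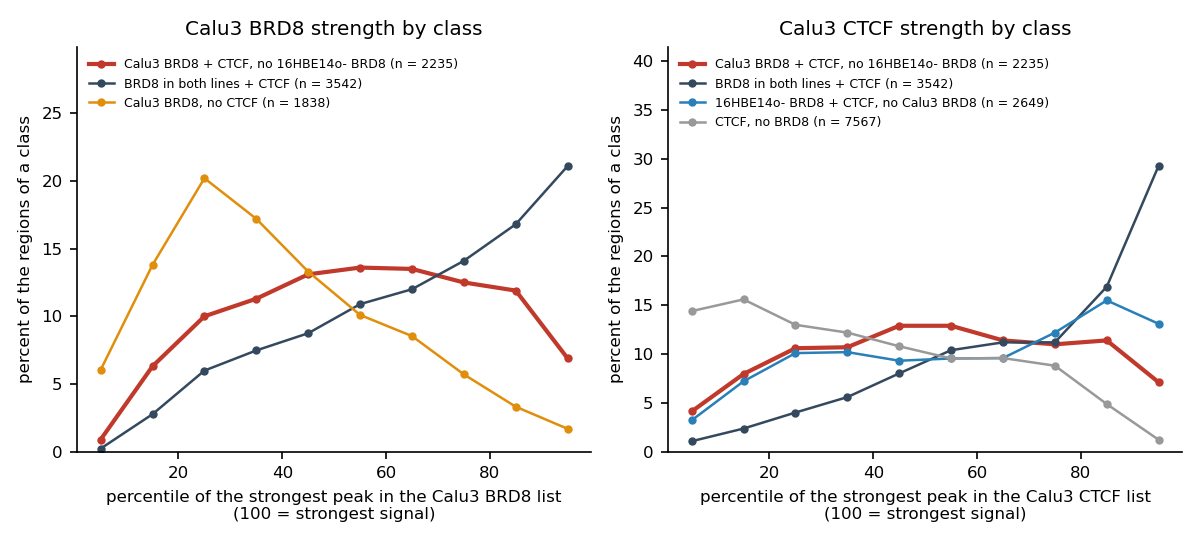
Share of the regions of each class (vertical axis, percent) in 10 bins of the percentile of their strongest peak (horizontal axis, 100 = strongest), in the Calu3 BRD8 list (left) and in the Calu3 CTCF list (right). Calu3-only regions with CTCF fill the middle of both lists, with medians of 56.2 for BRD8 and 52.6 for CTCF, while both-line regions crowd the strong end, with medians of 71.6 and 76.9.

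With 16HBE14o- BRD8 regions left aside, Calu3-only regions with CTCF were more frequent at the strong end of either list than at the weak end. Among CTCF regions without 16HBE14o- BRD8, the share that held Calu3 BRD8 was 63.3% in decile 1, the strongest 10% of the CTCF list (159 of 251), and 40.9% in decile 2. From decile 3 to decile 6 it was level, at 26.9%, 25.9%, 28.5% and 26.1%. It was 7.78% in decile 10, the weakest (92 of 1182). These shares leave out the CTCF regions with 16HBE14o- BRD8. In decile 1 those were 1037 both-line regions and 347 with 16HBE14o- BRD8 alone, and in decile 10 they were 38 and 85. Among Calu3 BRD8 regions without 16HBE14o- BRD8, the share that held CTCF was 83.2% in decile 1 of the BRD8 list (154 of 185), 62.1% in decile 5 (305 of 491) and 15.3% in decile 10 (20 of 131). With the both-line regions included, Calu3-only regions with CTCF were 16% of all Calu3 BRD8 regions in decile 1 (154 of 962), 32.5% in decile 5 (305 of 939) and 14.1% in decile 10 (20 of 142).

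Stronger BRD8 went with somewhat stronger CTCF. The median CTCF percentile of the Calu3-only regions was 68 in decile 1 of the BRD8 list, 50.1 in decile 5 and 43.8 in decile 9. The signals of the 2 proteins had a Pearson correlation of 0.240 and a Spearman correlation of 0.232 across the 2235 Calu3-only regions, and of 0.266 and 0.261 across the both-line regions. The regions are points from the same pooled lists, so these values are a description. Of the Calu3-only regions, 154 were in the upper 10% for BRD8 and 159 in the upper 10% for CTCF. There were 37 (1.66%) in the upper 10% of both lists, while 33 (1.48%) were in the upper 10% for BRD8 and the lower 50% for CTCF, and 27 (1.21%) showed the reverse. At like BRD8 strength, CTCF stood lower than in both-line regions. In decile 1 of the BRD8 list, the median CTCF percentile of 68 for 154 Calu3-only regions stood against 87.1 for 747 both-line regions. In decile 5 it was 50.1 for 305 Calu3-only regions and 66 for 385 both-line regions, and the order was the same in each of the 10 deciles. At like CTCF strength, BRD8 also stood lower in each decile, with medians of 74.9 in Calu3-only and 81 in both-line regions in CTCF decile 1.

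The single regions with the most BRD8 varied in their CTCF. The strongest BRD8 signal of any Calu3-only region lay in 10p15.1 (chr10:4891829-4892464), at 232 and rank 29 of 9769. Its CTCF peak ranked 4745 of 16413 with a signal of 61.4, and the summits of the 2 proteins were 1 bp apart. The nearest 16HBE14o- BRD8 peak was 1.24 Mb away. The second region, in 5q31.2 (chr5:139145134-139145574), had a BRD8 signal of 196 (rank 49) and a CTCF signal of 128 (rank 2389), with a 16HBE14o- BRD8 peak 9.16 kb away. In 3q26.2 (chr3:167765027-167765645), the BRD8 signal was 155 (rank 100) and the CTCF signal 42.4 (rank 6538), and 16HBE14o- had no BRD8 peak for 1.1 Mb. The fourth, in 11p15.1 (chr11:19092706-19093049), had a BRD8 signal of 150 (rank 112) and a CTCF signal of 40.2 (rank 6896). Chosen for their BRD8, these 4 thus had CTCF ranks of 2389 to 6896.

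The next 6 by BRD8 signal lay in 2q13 (signal 148, rank 117), 17q12 (139, rank 140), 12p11.22 (127, rank 168), 17q12 again (127, rank 169), 2q23.3 (126, rank 174) and 3q26.2 (122, rank 192). Of the 10, the region with the weakest CTCF was that in 12p11.22 (chr12:29470775-29471064), where CTCF ranked 9797. The region with the strongest CTCF was the second one in 17q12 (chr17:36740660-36740876), where CTCF ranked 423. The median CTCF percentile of the 10 was 68.2 (40.3 to 97.4), against 98.3 (58 to 100) for the 10 strongest both-line regions. Their summits were 1 to 97 bp apart. Of the 154 Calu3-only regions in the upper 10% of the BRD8 list, 54 (35.1%) had a strongest BRD8 peak narrower than 476 bp, against 63 of all 2235 (2.82%), so the authors' peak widths moved with the signal here.

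Ordered by CTCF, the first Calu3-only region again lay in 17q12 (chr17:36714289-36714764). Its CTCF signal was 322 (rank 27), its BRD8 signal 99 (rank 303), its summits were 11 bp apart, and a 16HBE14o- BRD8 peak lay 7.74 kb away. It was followed by regions in 19q13.32 (CTCF signal 277, rank 117, BRD8 rank 1050), 12q24.33 (273, rank 129, BRD8 rank 763), 12q24.33 again (271, rank 139, BRD8 rank 454) and 3q26.2 (269, rank 146, BRD8 rank 1156). Both proteins together were strongest, by summed rank, in that first 17q12 region. Next came a pair in 11p15.5. The region at chr11:728064-728334 had BRD8 rank 199 and CTCF rank 246, with summits 2 bp apart. The region at chr11:518686-519282 had BRD8 rank 292 and CTCF rank 225, with both summits on the same base. A region in 3q27.3 (chr3:187458698-187458938) had BRD8 rank 246 and CTCF rank 342, and a 16HBE14o- peak lay 674 bp from it. The fifth was the second 17q12 region above. The band 17q12 held 30 Calu3-only regions, 28 both-line regions, 6 regions with 16HBE14o- BRD8 and CTCF alone and 98 CTCF regions with no BRD8. Its share of Calu3-only regions among CTCF regions without 16HBE14o- BRD8 was 23.4%, near the 22.8% over the genome. The copy number of this band was not measured, so its part in the signal ranks was not tested.

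Because the rule joins overlapping peaks, the BRD8 and CTCF summits of a region cannot lie far apart. The distances below are thus a description, and no background distance was computed. The strongest summits of a Calu3-only region were a median of 35 bp apart (quartiles 15 and 68 bp, highest 591 bp), with 63.9% within 50 bp (95% interval 61.9 to 65.9%) and 86.1% within 100 bp (84.6 to 87.5%). Both-line regions had a median of 28 bp, with 74.8% within 50 bp (73.4 to 76.2%) and 92.3% within 100 bp. With 1 peak of each Calu3 list per region, the medians were 34 bp over 1780 Calu3-only regions and 27 bp over 2769 both-line regions. The BRD8 summit had the higher coordinate in 1090 Calu3-only regions and the lower one in 1121, and was on the same base in 24. Read along the chromosome, BRD8 lay on either side of CTCF about equally often (49.3% higher, 47.2 to 51.4%). The strand of the CTCF motif was not known, so this split cannot show whether BRD8 keeps to 1 side of the motif.

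The distance between summits varied with signal within the class. It was a median of 28 bp in the 559 Calu3-only regions with the strongest CTCF and 43 bp in the 559 with the weakest, with 73% and 57.2% within 50 bp. By BRD8 signal, the medians were 31 bp in the strongest 559 and 47 bp in the weakest 559, with 73.9% and 53.3% within 50 bp. Both-line regions were the stronger class in both lists, and the part of signal strength in the difference between the classes was not tested.

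**Figure D2:**
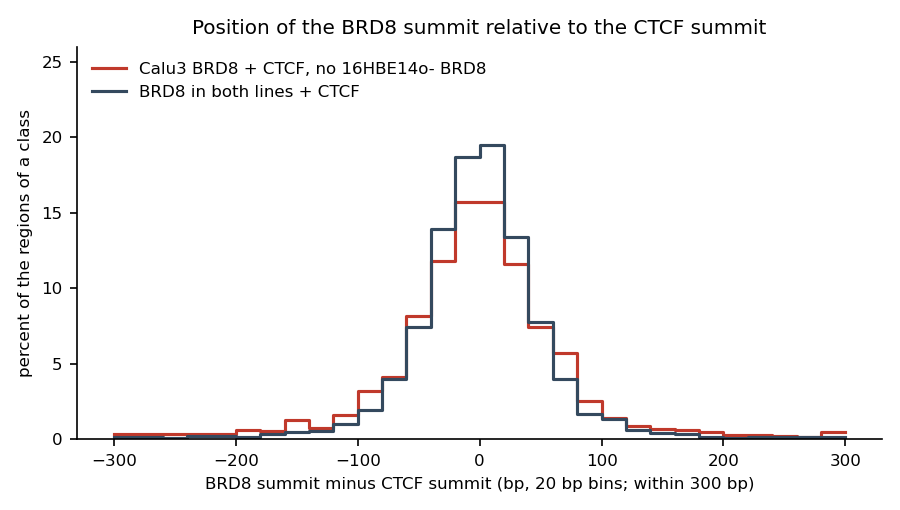
Position of the strongest BRD8 summit relative to the strongest CTCF summit (horizontal axis, bp along the chromosome in 20 bp bins, within 300 bp) and the share of regions in each bin (vertical axis, percent of all regions of the class). Both classes centre on 0, and the curve of the Calu3-only regions is lower in the middle and wider, with 63.9% within 50 bp against 74.8% for both-line regions. Overlapping peaks define both classes, so the closeness of the summits follows in part from the rule.

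Position on the chromosomes was not used by the rule and could be tested, although differences between the BRD8 lists by arm were already known when the test was chosen. Calu3-only regions were spread unevenly. For each arm, the Calu3-only regions in and outside the arm were set against the CTCF regions with no BRD8 by a two-sided Fisher's exact test, with Benjamini-Hochberg adjustment over 40 arms. Regions are not replicates and neighbours are not independent, so the p-values describe these lists only. Calu3-only regions were over-represented on 7 of 40 arms (17.5%) and under-represented on 12 (30%) at an adjusted p below 0.05.

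The largest gain in share was on 3q, with 237 of the 2235 Calu3-only regions (10.6%), against 425 of 7567 CTCF regions without BRD8 (5.62%). The odds ratio was 1.99 (95% Woolf interval 1.69 to 2.35), with an adjusted p of 1.7e-13 by Fisher's exact test. The short arm 11p held 142 Calu3-only regions (6.35%), against 245 CTCF regions without BRD8 (3.24%), with an odds ratio of 2.03 (1.64 to 2.51, adjusted exact p = 5.7e-09). Next came 5q with 163 against 353 regions (odds ratio 1.61, adjusted exact p = 1.7e-05), 7p with 134 against 291 (1.59, adjusted p = 1.4e-04) and 3p with 91 against 201 (1.56, adjusted p = 0.00252). Over-representation was also called on 10p (odds ratio 1.66) and 19q (1.37).

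The arms with the largest loss in share were 14q, with 24 Calu3-only regions (1.07%) against 210 CTCF regions without BRD8 (2.78%; odds ratio 0.38, 0.249 to 0.582, adjusted exact p = 9.4e-06), and 16q, with 20 against 188 (odds ratio 0.354, adjusted p = 9.4e-06). They were followed by 20q with 34 against 230 regions (0.493), 6p with 27 against 193 (0.467) and 4q with 11 against 134 (0.274). The lowest odds ratios were on 2 arms with few regions, 21q with 2 Calu3-only regions against 47 (odds ratio 0.143, 0.0348 to 0.59) and 13q with 4 against 67 (0.201, 0.0731 to 0.551). The other arms called lower were 17p, 4p, 5p, 6q and 9q, with odds ratios of 0.288 to 0.594. On 10p, the odds ratio turned to 0.665 when the upper 50% of each list was used, and to 0.945 with the upper 50% of the Calu3 lists only. With 1 region kept per 100 kb window and class, so that near neighbours count once, the odds ratio was 1.25 on 3p (adjusted exact p = 0.203) and 0.795 on 20q (adjusted exact p = 0.352), and neither was called. Of the 10 planned settings, 6 left 10p uncalled, 5 each left 3p and 20q uncalled, 4 left 5p, 3 left 19q and 2 left 9q, while 17p, 21q, 4p, 6p and 6q each lost their call in 1. The arms 3q, 11p, 5q, 7p, 14q, 16q, 4q and 13q were called in all 10.

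As a share of the CTCF regions without 16HBE14o- BRD8 in an arm, Calu3-only regions ran between 36.7% on 11p (31.9 to 41.7%) and 4.08% on 21q (0.498 to 14%). The order of the first arms, 11p, 3q (35.8%) and 10p (32.7%), is within their intervals. In the 7 arms called higher, the share was 17.1%, 33.6% and 47.2% in the weakest, middle and strongest parts of these CTCF regions, cut into 3 by CTCF percentile. In the 12 arms called lower, it was 5.58%, 11.3% and 15%. The arms were chosen by this share, so the gap between them is a description. With only regions whose strongest CTCF peak was in the upper 50% of the list, 14 of the 19 calls were kept.

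**Figure D3:**
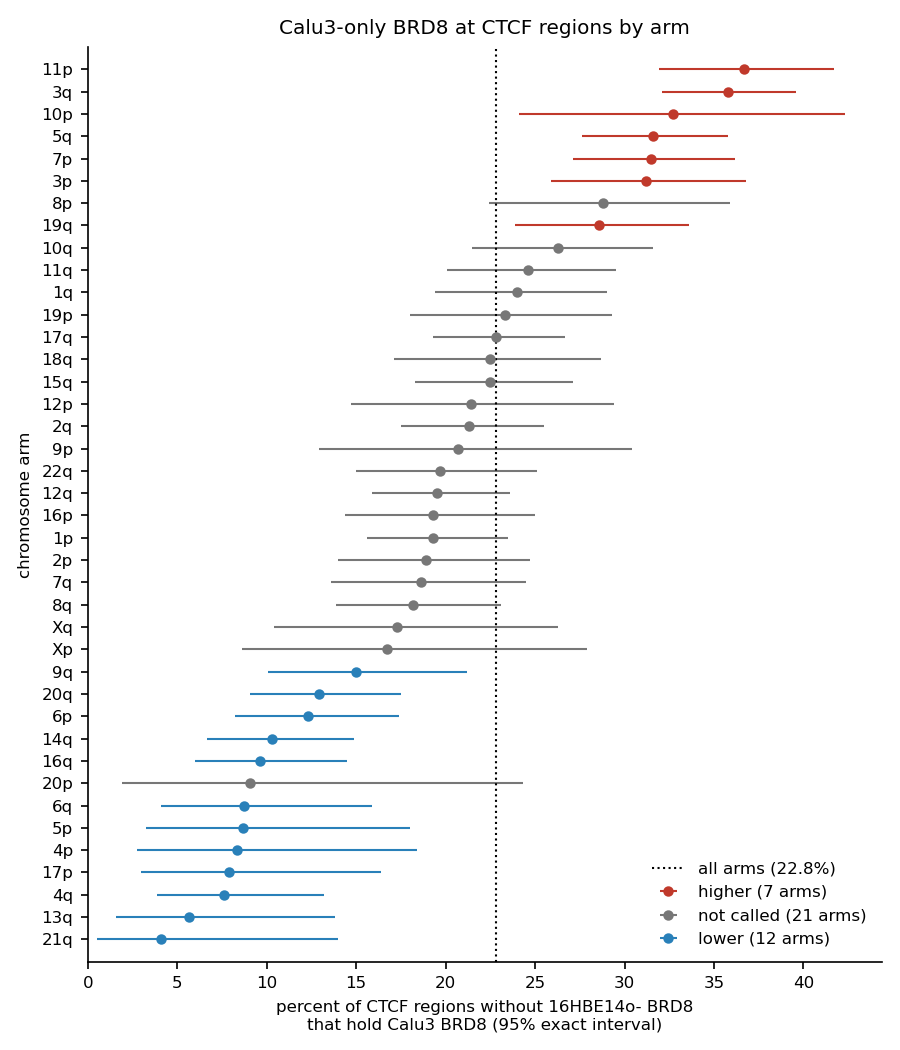
Share of the CTCF regions without 16HBE14o- BRD8 that held Calu3 BRD8 (horizontal axis, percent, with 95% exact intervals) for the 40 chromosome arms tested (vertical axis, highest share at the top), coloured by the call of Fisher's exact test. The 7 arms called higher reach 36.7% on 11p, and the 12 arms called lower go down to 4.08% on 21q, on either side of the 22.8% over all arms.

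A Calu3-only region needs both a call in Calu3 and none in 16HBE14o-, and the arms differed in which of these was unusual. On 11p, 38.8% of all 418 CTCF regions held Calu3 BRD8 (34.1 to 43.6%), close to the 36.1% over all arms. Only 7.42% of them held 16HBE14o- BRD8 (5.09 to 10.4%), against 38.7% over all arms. On 10p the values were 33.9% for Calu3 and 6.78% for 16HBE14o-, of 118 CTCF regions. As a result, 142 of the 162 Calu3 BRD8 regions with CTCF on 11p (87.7%, 81.6 to 92.3%) and 36 of 40 on 10p (90%, 76.3 to 97.2%) were Calu3-only, against 38.7% over all arms. On 18q both lines were low, with 27.2% for Calu3 (21.8 to 33.2%) and 14.8% for 16HBE14o- (10.6 to 19.8%), and 70.6% of its Calu3 BRD8 regions with CTCF were Calu3-only.

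On 3q and 7p both sides departed from the whole. Calu3 BRD8 was at 46.9% of the 876 CTCF regions of 3q (43.6 to 50.3%) and 16HBE14o- BRD8 at 24.4% (21.6 to 27.4%). On 7p, Calu3 BRD8 was at 45% and 16HBE14o- BRD8 at 27% of 582 CTCF regions. The arm 5q had 44.5% for Calu3 and 34.4% for 16HBE14o-, and 19q had 46.7% and 38.2% in the same order. The arm 20q had as much BRD8 in Calu3 as 5q, at 44.5% of 609 CTCF regions (40.5 to 48.5%). It had more than that in 16HBE14o-, at 56.7% (52.6 to 60.6%), and only 12.5% of its Calu3 BRD8 regions with CTCF were Calu3-only (34 of 271). On 21q and 13q, Calu3 was low and 16HBE14o- high. Calu3 BRD8 was at 16.5% (9.73 to 25.4%) of the CTCF regions of 21q, against 49.5% (39.2 to 59.8%) for 16HBE14o-, and at 18.2% (12.2 to 25.7%) on 13q, against 48.2% (39.6 to 56.9%). On 4q, Calu3 BRD8 was at 13.5% and 16HBE14o- BRD8 at 30%.

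When 16HBE14o- calls were ignored, an alternative chosen after these values had been seen, all CTCF regions with Calu3 BRD8 were compared with all those without it. Fisher's exact test then called 6 of 41 arms higher (14.6%) and 14 lower (34.1%). The over-representation on 3q (odds ratio 1.61, adjusted exact p = 3.8e-10), 5q (1.44), 7p (1.47) and 19q (1.58) was still called. The arms 11p (odds ratio 1.12, 0.92 to 1.37, adjusted exact p = 0.363), 3p (1.13, adjusted p = 0.366), 10p (0.906, adjusted p = 0.736) and 14q (0.87, adjusted p = 0.224) were no longer called. On 20q the direction turned, to an odds ratio of 1.44 (1.22 to 1.69, adjusted exact p = 8.3e-05). Of the 19 arms first called, 14 kept their call and direction.

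**Figure D4:**
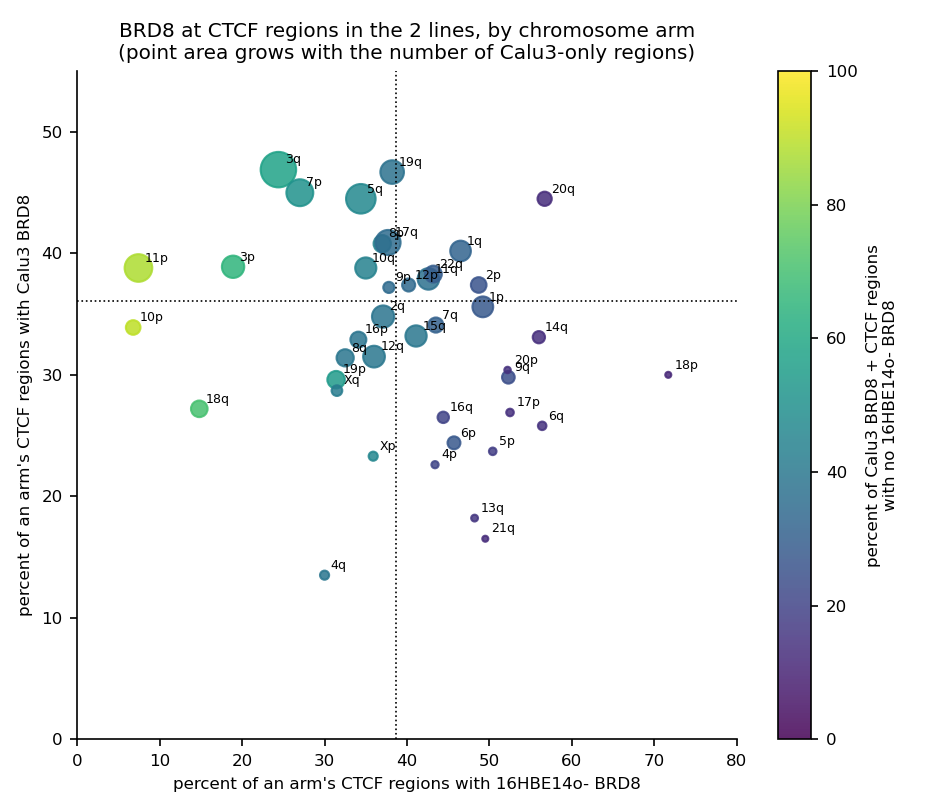
Percent of the CTCF regions of each chromosome arm that held Calu3 BRD8 (vertical axis) and 16HBE14o- BRD8 (horizontal axis), for arms with at least 50 CTCF regions. Point area grows with the number of Calu3-only regions, colour gives the percent of Calu3 BRD8 regions with CTCF that were Calu3-only, and dotted lines mark the values over all arms (36.1% and 38.7%); 11p and 10p sit far to the left at an ordinary height, 3q and 7p are both high and left, and 20q is high and right.

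The second comparison set the Calu3-only regions against the mirror class, the 2649 regions with CTCF and BRD8 in 16HBE14o- alone. By the same test, 10 of 41 arms held relatively more Calu3-only regions (24.4%) and 17 held fewer (41.5%). In share, the excess was greatest on 3q, with 237 Calu3-only regions (10.6%) against 40 regions of 16HBE14o- alone (1.51%), an odds ratio of 7.74 (5.51 to 10.9, adjusted exact p = 1.1e-43). On 11p there were 142 Calu3-only regions against 11, an odds ratio of 16.3 (8.79 to 30.1, adjusted exact p = 5.8e-35). On 7p there were 134 against 29 (odds ratio 5.76), on 5q 163 against 84 (2.4) and on 3p 91 against 19 (5.88). In share, the deficit was greatest on 14q, with 24 Calu3-only regions (1.07%) against 146 (5.51%; odds ratio 0.186, 0.12 to 0.288, adjusted exact p = 7.2e-18). It was followed by 1p with 78 against 187 (0.476), 6p with 27 against 113 (0.274), 9q with 26 against 108 (0.277) and 6q with 9 against 81 (0.128). Both comparisons share the Calu3-only regions, so the second is not independent of the first.

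The arms also differed at regions that the rule left out. At both-line regions with CTCF, the median of the Calu3 minus the 16HBE14o- BRD8 percentile was 41.6 on 11p, over 20 regions, and 26.2 on 3q, over 174. It was 26.5 on 18q, over 20 regions. The lowest medians were -25.9 on 18p, -21.8 on 21q and -16 on 6q, over 16, 14 and 52 regions. Among the arms called lower, 4q (10.3), 6p (1.84) and 16q (1.54) had positive medians. Over all both-line regions with CTCF, the median percentile was 71.6 in Calu3 and 68 in 16HBE14o-, so small positive values need not be a departure from the whole. Correlations were taken over the 40 arms tested against CTCF regions without BRD8, so 18p is left out. Each arm counted alike, although 10p had only 4 both-line regions. Across these arms, the share of Calu3-only regions among CTCF regions without 16HBE14o- BRD8 was set against the median difference at both-line regions. The Pearson correlation was 0.70 and the Spearman correlation 0.62. With the density of CTCF regions per Mb, the correlations were 0.34 and 0.51. The arms share the same 3 lists and their thresholds, so these are descriptions of the lists. The copy number of the arms in either line was not measured, so its part in the arm differences was not tested.

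Along the chromosome, Calu3-only regions lay next to each other more often than their overall number, as did the regions of the classes most like them. Of the regions directly before and after a Calu3-only region, 17% were Calu3-only regions too, against 10.6% of all merged regions and 14.1% once all regions were weighted by the arms that hold Calu3-only regions. Among the neighbours of regions with CTCF and 16HBE14o- BRD8 alone, 17.5% were of that class, against 12.5% of all regions. For both-line regions with CTCF the values were 20.3% and 16.8%, and for CTCF regions without BRD8 41.1% and 35.8%. Calu3 BRD8 regions without CTCF made up 11.6% of the neighbours of Calu3-only regions with CTCF, against 8.71% of all regions and 10.4% by arm. Regions of 16HBE14o- BRD8 alone were rarer among these neighbours. Those with CTCF made up 7.91%, against 12.5% of all regions and 9.98% by arm, and those without CTCF 6.49%, against 12.9% and 8.73%. For the Calu3-only regions and these 3 classes, the weighting by arm moved the share of all regions toward the neighbours' value without reaching it. The distance between successive Calu3-only regions had a median of 314 kb, and 548 of 2212 such gaps (24.8%) were at most 100 kb.

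**Figure D5:**
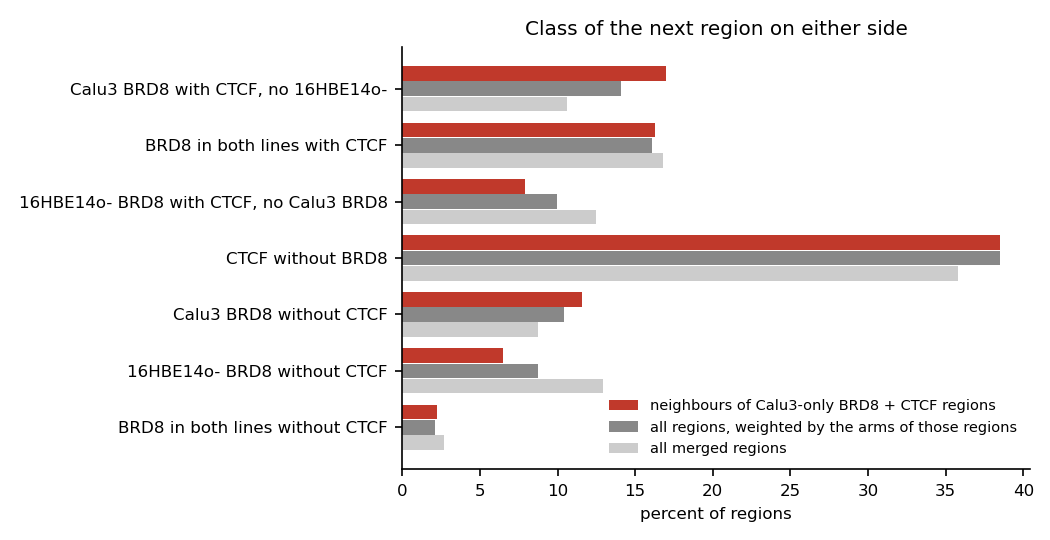
Class of the regions directly before and after a Calu3-only region with CTCF (top bar of each group), of all merged regions weighted by the arms that hold Calu3-only regions (middle bar) and of all merged regions (bottom bar), as a percent of regions (horizontal axis). Calu3-only regions with CTCF are 17%, 14.1% and 10.6% in these sets, and both classes of 16HBE14o- BRD8 alone are less common among the neighbours than in the other sets.

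With all classes of merged region in order, 1560 Calu3-only regions (69.8%) stood singly and 482 (21.6%) stood in pairs, while the others followed each other in unbroken runs of 3 or more. The longest run was 8 Calu3-only regions over 320 kb in 11p11.2 (chr11:44638378-44958429), with no other BRD8 or CTCF region between them. The BRD8 percentiles along it were 90.1, 88, 61.1, 29.7, 46.4, 46.7, 76.8 and 89.7, and the CTCF percentiles were 61.5, 89.3, 91.6, 49, 75.3, 22.3, 44 and 76.5. The run was thus strongest in BRD8 at both ends and not uniform in either protein. Its summits were 9 to 37 bp apart. Runs of 6 were found in 3p21.1 (chr3:53080530-53254298, 174 kb), 5q35.2 (chr5:174162928-174872079, 709 kb) and 11p15.5 (chr11:2320463-2450061, 130 kb). Of the 3 runs of 5, 1 lay in 7p14.1 (chr7:39504524-39786269, 282 kb).

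By the rule, every Calu3-only region lies in a stretch free of 16HBE14o- BRD8 peaks. There were 1397 such stretches with Calu3-only regions, and 993 of them held 1. The 58 with at least 5, picked by that count at any length, held 421 of the 2235 (18.8%). Their part of all CTCF regions was not computed. The stretches below are ordered by count, and the share of Calu3-only among CTCF regions without 16HBE14o- BRD8 was 22.8% over the genome and 36.7% on 11p. The stretch with the most ran over 16.1 Mb between 11p15.1 and 11p13 (chr11:18265603-34380904). It held 67 CTCF regions, of which 21 were Calu3-only regions and 46 had no BRD8. Next was 1.23 Mb of 11p11.2 (chr11:44560343-45793591), where 15 of 22 CTCF regions were Calu3-only. Each of 3 further stretches held 12, a pair of neighbours in 11p15.4 to 11p15.3 and 1 across 11q12.1 and 11q12.2 (chr11:58556215-60542877). In 12q24.33, the last 6.09 Mb of the chromosome (chr12:127765534-133851895) held 11 Calu3-only regions among 54 CTCF regions. The median CTCF percentile of those 11 was 94.7, and the median BRD8 percentile was 69.5.

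Calu3-only regions were found in 492 of 851 cytogenetic bands. A further 294 bands held only regions of other classes, and the rest held no merged region. The bands with the most were 19q13.2 with 32, 11p15.5 with 31, 17q12 with 30 and 11p11.2 with 29. As a share of the CTCF regions without 16HBE14o- BRD8, these were 38.6%, 39.2%, 23.4% and 42%, against 22.8% over the genome, so the count in 17q12 was near the background. Among the 12 bands with the most Calu3-only regions, the highest densities per Mb were 11.1 in 11p15.5, the band of the imprinted H19-IGF2 and KCNQ1 domains, 8.93 in 19q13.32 and 6.81 in 19q13.2. The classes beside them differed. In 19q13.2 there were 43 both-line regions and 15 regions with CTCF and 16HBE14o- BRD8 alone, while 11p15.5 had 6 and 5, and 11p11.2 had 6 and 1. In 11p15.1, 22 Calu3-only regions stood beside 1 region of 16HBE14o- BRD8 alone and 0 both-line regions, among 25 CTCF regions with no BRD8. Genes at these regions were not assigned, since an hg19 annotation was not used here. For the same reason, no region of 11p15.5 was placed inside or outside the imprinted domains.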

How the data were processed

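The 6 samples were 2 replicates of each of 3 ChIP-seq experiments on sonicated nuclei, per the labels. The authors combined the replicates of an experiment by IDR, as the series' design text states. The deposited lists are on hg19, per the file headers and the submitters' processing notes. The aligner, peak caller, control library and IDR settings are not given in the sources used here. The deposited columns hold the authors' display score, the authors' signal, which served only for ranks inside each list, a further deposited score in the column for q-values, and the summit's offset, another kind of number in the deposited files. The deposited column for p-values holds a placeholder score and was not used.

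Peaks were merged at an overlap of 1 bp, with a result identical to that of bedtools 2.31.1. Analyses used Python 3.11.15, numpy 2.4.6, pandas 2.3.3, scipy 1.17.1 and matplotlib 3.10.9, with bands from circlize 0.4.16 and chromosome lengths from GenomeInfoDb 1.38.1. Arms with at least 20 regions of both classes together were tested by two-sided Fisher's exact test with Benjamini-Hochberg adjustment and called at an adjusted p below 0.05. The arm test was also tried on simulated regions whose arms were drawn independently. That setting has no clustering of neighbours, so it does not show how often the test calls wrongly in these lists. With 1 pooled list per experiment, nothing measures the spread between cultures. Regions named were the 10 with most BRD8 signal, the 5 with most CTCF signal, the 5 best by summed rank, the longest runs, the edges of the rule, the regions with most BRD8 peaks, and, in each comparison, the 10 called arms with the largest difference in share. The bands, stretches and remaining arms were singled out after their values were seen. The members and lists were chosen with earlier results of these data known. Coordinates are 1-based.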

Additional observations from a re-analysis of the deposited data

Results flagged for a closer look

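On 16 chromosome arms, the Calu3-only regions with CTCF and the regions with CTCF and BRD8 in 16HBE14o- alone departed from the CTCF regions without BRD8 in opposite directions. Fisher's exact test called both departures there. The difference of Calu3-only against 16HBE14o- regions was called too, but it follows from both departures and adds no support. By the rule, a region in one class cannot be in the other. With 16HBE14o- calls ignored, 11p, 3p, 10p and 14q were no longer called, and 20q turned to an odds ratio of 1.44. Arms such as 1p (odds ratios 0.803 and 1.69) and 16q (0.354 and 1.33) had opposite directions too, but with a departure that was not called, so they are not among the 16. The odds ratio of Calu3-only to 16HBE14o- regions was above 1 on 11p (16.3), 10p (10.8), 3q (7.74), 3p (5.88), 7p (5.76), 5q (2.4) and 19q (2.34). It was below 1 on 20q (0.363), 9q (0.277), 6p (0.274), 14q (0.186), 5p (0.163), 17p (0.149), 6q (0.128), 13q (0.104) and 21q (0.0689). In Fisher's exact test of Calu3-only against 16HBE14o- regions, the largest adjusted p on these 16 arms was 1.7e-06, on 5p. On 21q and 13q the Calu3-only side rests on 2 and 4 regions. On 10p (95% Woolf interval 3.85 to 30.5) and 11p the 16HBE14o- side rests on 4 and 11 regions.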

How the results depend on the processing

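The number of Calu3-only regions was 1329 with the upper 50% of each list, 1432 with lists of equal length and 792 with the upper 50% of the Calu3 lists only, against 2235 as reported, since fewer peaks enter; under the other 6 settings it was 1880 to 2254. The count of arms that differed from CTCF regions without BRD8 was 10 with the upper 50% of the Calu3 lists only, against 19, and 15 to 21 otherwise. Of the 19 arms, 8 were called in all 10 planned settings (11p, 13q, 14q, 16q, 3q, 4q, 5q and 7p). With 16HBE14o- calls ignored, an alternative that was not planned, 11p (odds ratio 1.12) and 14q (0.87) among these 8 were no longer called. The odds ratio of 10p turned to 0.665 with the upper 50% of each list, 0.945 with the upper 50% of the Calu3 lists only and 0.906 with 16HBE14o- calls ignored, and that of 20q to 1.44 with those calls ignored; the cause was not tested. Against 16HBE14o- regions, 21 to 27 arms were called, 22 of the 27 in every setting that tested them, and the odds ratio of 10q, reported as 1.54, turned to 0.947 with lists of equal length and 0.862 with the upper 50% of the Calu3 lists only. The median summit distance was 28 to 37 bp. No paired analysis was possible because the lists are pooled and carry no replicate numbers, and for the same reason no replicate could be left out. The planned shares of regions near a transcription start and with a CTCF motif, with their alternatives, were not run, as no hg19 genome or annotation was used here.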
